A study of Homo sapiens with 36 samples.

Results

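The enzymes that make and desaturate fatty acids were followed through the deposited RNA sequencing table by their gene symbols, which gave 10 of its 60675 genes. They are ACLY, ACSS2, ACACA, ACACB, FASN, ELOVL6, SCD, ELOVL5, FADS1 and FADS2. All 10 symbols matched a single row each.

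The study asked whether Aconitum carmichaeli Debeaux (ACD), a medicinal monkshood, acts more on brain-derived or on intestine-derived cells. SW1783, a human astrocytoma line, and HT29, a human colorectal adenocarcinoma line, were exposed for 24 h. Each line had 6 groups of 3 libraries. Batch A held vehicle libraries and libraries of cells given wortmannin at 10 µM (the positive control, which blocks the lipid kinase PI3K), and batch B held a vehicle group and 3 groups given a hot water extract of ACD at 500 (high), 100 (medium) or 20 µg/mL (low). The labels name the extracted material as Aconiti Lateralis Radix Preparata. All groups share the DMSO vehicle, whose percentage the labels and the methods give differently. Each line is a single tumor line grown in its own medium, so a difference between the lines cannot be told apart from a difference in medium. The labels do not say that the 3 libraries of a group came from separate cultures, so p-values measure only the spread between these libraries, which may be technical.

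Cells build fatty acids from acetyl-CoA in the cytosol. ACLY makes acetyl-CoA from citrate and ACSS2 makes it from acetate. Acetyl-CoA carboxylase, encoded by ACACA and ACACB, turns it into malonyl-CoA, the product of ACACA serving mainly synthesis and that of ACACB, at the mitochondrial membrane, mainly the control of fatty acid oxidation. FASN then assembles palmitate. ELOVL6 lengthens palmitate to stearate and SCD inserts the double bond that gives palmitoleate and oleate. The polyunsaturated branch starts from essential dietary fatty acids, with FADS2 as the first desaturase, ELOVL5 as an elongase and FADS1 as the later desaturase. Most of these genes are known targets of the transcription factor SREBP-1, encoded by SREBF1, which is activated when INSIG proteins release its escort SCAP, and several are also targets of the liver X receptors.

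Total counts per library ranged from 15941255 to 33866644, and 3 counts, about the upper 95% limit for a count of 0, corresponded to 0.0886 to 0.188 CPM (the count rescaled to a library of 1000000 counts). These floors cover counting error only. The epithelial genes EPCAM, KRT20, CDH1, CDX2 and VIL1 were at 0 to 0.202 CPM in SW1783 and at 4.8 CPM or more in every HT29 library. VIM, the mesenchymal intermediate filament, was at 4080 to 4970 CPM in SW1783 and at 0 to 0.133 CPM in HT29, but the astrocyte markers S100B and GFAP were at 0 to 0.261 CPM in SW1783, so that the astrocytic label had no support from these 2 markers. CD44 was at 1970 to 2860 CPM in SW1783 and at 380 to 577 in HT29, and NES, the neural progenitor filament nestin, at 2.74 to 11.2 and at 0.21 to 1.42. In HT29, replicate 2 of the high dose stood apart from the others, and results of the high dose in HT29 that rest on it are also given without it. Vehicle libraries of batches A and B with the same replicate number were closer to each other than those with different numbers, with a chi-square per degree of freedom over genes of 1.53 to 1.64 against 2.04 to 3.12 in SW1783 and of 1.46 to 1.54 against 4 to 17.7 in HT29. The vehicle groups of both batches were therefore not taken as independent of each other.

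In vehicle-treated cells the lines differed most in the polyunsaturated branch. Levels between genes are given as CPM per kb of the canonical transcript, as the mean of the 3 batch B vehicle libraries with its SD or range. In SW1783 the order was ACLY 116, ELOVL5 111, SCD 49.6, FASN 40.9, FADS1 22.8, FADS2 22, ACACA 16.9, ACSS2 13, ELOVL6 7.03 and ACACB 1.04 CPM per kb. FADS1 (22.1 to 23.4) and FADS2 (21.4 to 22.8) overlapped, and no other neighbours in this order did. The order depends on the length used, since per kb of the union of all exons FADS1 stood at 9.73 and FADS2 at 6.45, both below ACACA at 13. In HT29 the order was SCD 320, FASN 121, ACLY 84.8, ACACA 49.4, ELOVL6 10.9, ACSS2 7.72, FADS1 1.22, ACACB 0.372, FADS2 0.0598 and ELOVL5 0.00379 CPM per kb, where FADS2 and ELOVL5 overlapped. SCD alone made up 53.7% ± 0.709 (SD, n = 3) of the summed level of the 10 enzymes in HT29 and 12.4% ± 0.153 in SW1783. ELOVL5, FADS1 and FADS2 together made up 0.214% ± 0.0249 in HT29 and 38.9% ± 0.573 in SW1783.

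**Figure D1:**
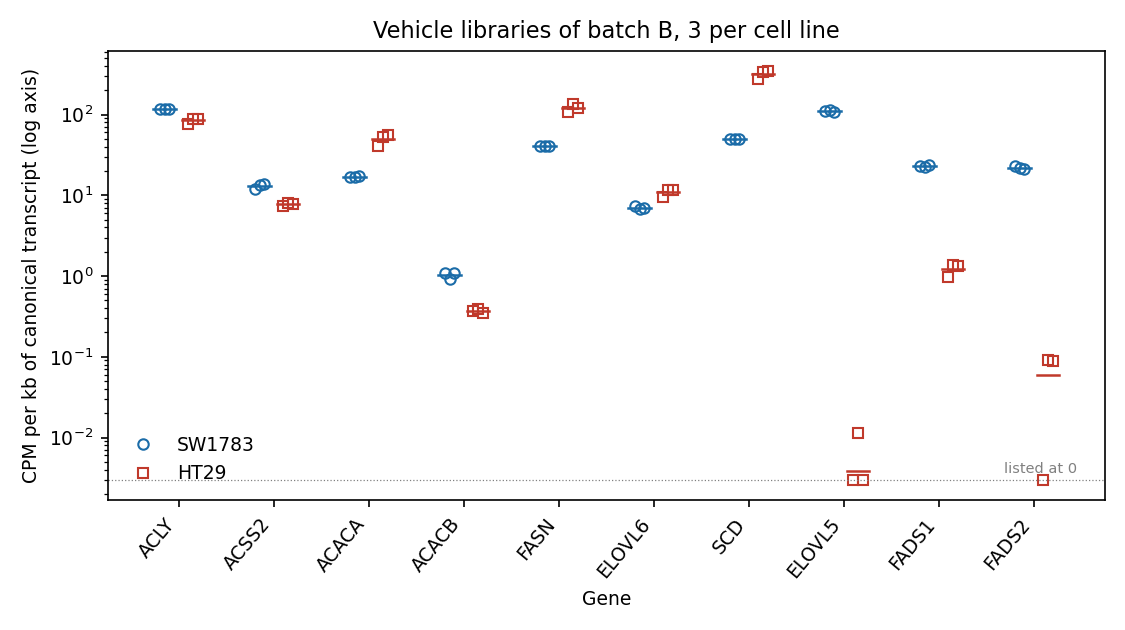
Level of each enzyme in the 3 batch B vehicle libraries of SW1783 (circles) and HT29 (squares), in CPM per kb of the canonical transcript on a log axis, with the mean as a line. Libraries listed at 0 are drawn on the dotted line, and ELOVL5 and FADS2 in HT29 lie below 0.1 CPM per kb while SCD in HT29 lies between 279 and 344.

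Between the lines, 9 of the 10 enzymes passed both thresholds of the test, an adjusted p under 0.05 and a change of more than 1.5-fold (0.585 on the log2 scale), in DESeq2's Wald test on the batch B vehicle libraries. This comparison called 55.9% of all genes tested, so the count itself says little about the enzymes. By adjusted p alone all 10 passed, where 69.4% of all genes did. In the polyunsaturated branch, ELOVL5 had 0 or 1 counts in every HT29 library, with 7 counts over all 18 and none in 11 of them, against 4625 to 8039 counts in SW1783 libraries. Its level in SW1783 vehicle, 307 CPM, was 7380 times the floor of 3 counts over the HT29 vehicle group. That group held 1 count and the floor is for a count of 0, so this fold is not a strict lower bound. FADS2 had 0 to 13 counts in HT29 libraries and 767 to 1709 in SW1783, with a log2 difference of 8.38 ± 0.38 (SE, adjusted p = 8.21e-106). FADS1, which lies head to head with FADS2 on chromosome 11, had 59 to 189 counts in HT29 and 1883 to 2647 in SW1783, and was higher in SW1783 by 4.22 ± 0.11 on the log2 scale. All 3 genes of this branch were thus far higher in SW1783. The vehicle groups did not overlap for any of the 10 enzymes, with 6 higher and 4 lower in all SW1783 libraries. A lack of overlap therefore does not set this branch apart, and its share over all genes was not computed.

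The genes of saturated and monounsaturated synthesis went the other way. SCD was lower in SW1783 than in HT29 by a log2 difference of -2.67 ± 0.074 (adjusted p = 5.21e-282), FASN by -1.54 ± 0.071 and ACACA by -1.53 ± 0.097. ELOVL6 differed by -0.61 ± 0.091, just past the fold threshold, and fell short of it in 3 of the fits that left out a single library (-0.58 to -0.57). On the supply side, ACSS2 was higher in SW1783 by 0.77 ± 0.093, and ACLY by 0.48 ± 0.056, which passed the adjusted p alone (6.47e-17). ACACB was higher in SW1783 by 1.49 ± 0.18, so that the 2 carboxylase genes differed between the lines in opposite directions. The transcription factor genes SREBF1 and SREBF2 were lower in SW1783 by -1.76 ± 0.064 and -1.70 ± 0.058, and of 23 genes of cholesterol synthesis and LDL uptake, which are SREBP-2 targets as a group, 19 were called lower, where 25.6% of all genes were, and none higher (median -1.72, against 0.05 over all genes tested). SQLE, the epoxidase of squalene, was at -3.60 ± 0.045 and DHCR7, which makes cholesterol from its immediate precursor, at -3.65 ± 0.062.

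The promoter sequences of SCD and ACLY are shown because these were the members with the largest rise and with the largest share of the summed level lost at the high dose in SW1783. RefSeq promoter windows on GRCh38.p14, from 250 bases before to 50 bases after a start site, were found for 9 of the 10 genes (15 windows), and FASN had no entry. The 250 bases upstream of the SCD start lie at chr10:100346983-100347232 on the plus strand and those of the first ACLY window at chr17:41919023-41919272 on the minus strand. Both are written 5′ to 3′ on the strand of the gene, and capitals mark CCAAT and GC boxes (GGGCGG) on either strand, so that ATTGG and CCGCCC are their reverse complements.
SCD: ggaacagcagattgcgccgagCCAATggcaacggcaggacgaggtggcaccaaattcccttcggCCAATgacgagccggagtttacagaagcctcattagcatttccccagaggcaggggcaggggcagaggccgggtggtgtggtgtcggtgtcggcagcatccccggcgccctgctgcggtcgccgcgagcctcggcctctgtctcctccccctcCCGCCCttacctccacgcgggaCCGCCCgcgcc
ACLY: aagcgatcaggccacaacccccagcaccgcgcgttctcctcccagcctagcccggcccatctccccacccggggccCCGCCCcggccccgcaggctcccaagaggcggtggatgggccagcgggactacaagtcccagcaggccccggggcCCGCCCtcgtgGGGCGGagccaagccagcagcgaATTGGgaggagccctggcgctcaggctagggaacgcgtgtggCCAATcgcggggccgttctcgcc
Each of these windows held 2 CCAAT boxes, at -229 to -225 and -186 to -182 in SCD and at -65 to -61 and -23 to -19 in ACLY, counted from the start site. CCAAT occurred in 34.6% and the GC box in 45.0% of the 35116 promoter windows of the table. The sterol regulatory element spelled TCACNCCAC was in none of the 15 windows of the members and in 1.13% of all windows, and the E-box CACGTG was in the ELOVL5 window alone among them and in 7.26% of all. A match is a description of the letters, and a missing match says only that these letters are not in the window.

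In SW1783 the high dose of ACD raised SCD and lowered FADS2, and most other enzymes moved by less than 1.5-fold in either direction. The low, medium and high groups share the batch B vehicle. SCD was at 5352, 5194 and 5270 normalized counts in vehicle, at 5247, 5408 and 5530 at the low dose, at 4489, 4710 and 4637 at the medium dose and at 10146, 10315 and 10658 at the high dose. All high-dose libraries were far above all vehicle libraries, while the medium-dose libraries were all below it. At the high dose the log2 fold change reached 0.98 ± 0.030 (a fold of 1.97, adjusted p = 2.83e-225), and at the medium dose -0.19 ± 0.032 (adjusted p = 2.52e-08), under the fold threshold. Between high and medium dose SCD rose by 1.17 ± 0.031, the only enzyme called in that comparison, which called 10.2% of all genes. By adjusted p alone 6 enzymes passed there, where 40.9% of all genes did. At the low dose its log2 fold change was 0.03 ± 0.031.

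FADS2, the entry enzyme of the polyunsaturated branch, was at 1426, 1364 and 1346 normalized counts in vehicle, at 1231, 1326 and 1314 at the low dose, at 947, 949 and 916 at the medium dose and at 888, 798 and 886 at the high dose. Each library of the medium and high groups was below each vehicle library. Its log2 fold change was -0.56 ± 0.059 at the medium dose (adjusted p = 2.31e-19), just short of the fold threshold, and -0.69 ± 0.060 at the high dose (adjusted p = 1.67e-29). The step from medium to high, -0.13 ± 0.062, did not pass (adjusted p = 0.0793), so the fold change at the high dose was not shown to be greater than at the medium dose.

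At the high dose in SW1783, 2 of the 10 enzymes were called, where 18.2% of all genes were, 1 higher (8.66% of all genes) and 1 lower (9.57%). By adjusted p alone 8 of the 10 passed, where 46.5% of all genes did, 4 of them higher (23.9% of all genes) and 4 lower (22.6%). Genes with high counts pass an adjusted p more readily, and all genes tested include many scarce ones. The shares of all genes given in this report were not matched for count, so an excess over them was not tested. The median log2 fold change of the 10 was 0.02, and -0.01 over all genes tested. The enzymes as a group thus did not move in a common direction.

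On the supply side, ACLY was at 10103, 10125 and 10142 normalized counts in vehicle and at 7597, 7733 and 7817 at the high dose, a log2 fold change of -0.39 ± 0.024 (adjusted p = 2.23e-57), below the fold threshold. At the medium dose it was -0.06 ± 0.024. ACSS2 was at 692, 781 and 804 in vehicle and at 828, 792 and 814 at the high dose, and its log2 fold change of 0.09 ± 0.070 did not pass (adjusted p = 0.284, 95% interval -0.04 to 0.23). Of the carboxylases, ACACA was at 3393, 3405 and 3474 in vehicle and at 3393, 3231 and 3308 at the high dose, with a log2 fold change of -0.05 ± 0.036 (adjusted p = 0.279). ACACB, the scarcest of the 10, was at 206, 173 and 210 in vehicle and at 131, 123 and 139 at the high dose. Its log2 fold change of -0.58 ± 0.14 (adjusted p = 0.000147) lay at the fold threshold and passed it in 3 alternative fits (-0.67 to -0.59).

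FASN, the synthase itself, was at 6998, 6972 and 7059 normalized counts in vehicle and at 7983, 7816 and 8078 at the high dose, with a log2 fold change of 0.18 ± 0.035 (adjusted p = 6.5e-07) and no overlap between the groups. ELOVL6, which supplies stearate to SCD, was at 973, 904 and 930 in vehicle, at 867, 820 and 812 at the low dose, at 771, 783 and 709 at the medium dose and at 675, 657 and 692 at the high dose. Its mean was lower at each higher dose, with log2 fold changes of -0.17 ± 0.066 (adjusted p = 0.169), -0.31 ± 0.066 (adjusted p = 2.69e-05) and -0.47 ± 0.067 (adjusted p = 1.31e-11), all below the fold threshold. ELOVL6 and SCD, which act in sequence, therefore had opposite signs at the high dose.

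In the polyunsaturated branch, FADS1 was at 2031, 1943 and 2074 normalized counts in vehicle, at 2183, 2223 and 2193 at the medium dose and at 2450, 2385 and 2333 at the high dose, with log2 fold changes of 0.13 ± 0.042 (adjusted p = 0.0106) and 0.25 ± 0.041 (adjusted p = 1.47e-08). FADS1 and FADS2 overlap on opposite strands in the annotation (chr11:61799627-61829318 and chr11:61792980-61867354, GENCODE v44 on GRCh38), and the library kit keeps the strand, but the strand setting of the counting was not stated. The span of FADS2 also overlaps FEN1 on the same strand, and that of ACACB overlaps UNG. The strand of a read does not tell these genes apart. The ratio of FADS1 to FADS2, each per kb, was 1.04 ± 0.0488 (SD, n = 3) in vehicle, 1.17 ± 0.0556 at the low dose, 1.66 ± 0.0319 at the medium dose and 1.98 ± 0.131 at the high dose. With wortmannin it was 0.983 ± 0.0113, and 1.02 ± 0.0148 in its vehicle. ELOVL5 was at 6304, 6307 and 6022 in vehicle, at 5361, 5735 and 5381 at the medium dose and at 6831, 7010 and 7085 at the high dose. As with SCD, the sign of ELOVL5 differed between the medium dose (-0.18 ± 0.032, adjusted p = 6.42e-07) and the high dose (0.17 ± 0.032, adjusted p = 6.71e-07).

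**Figure D2:**
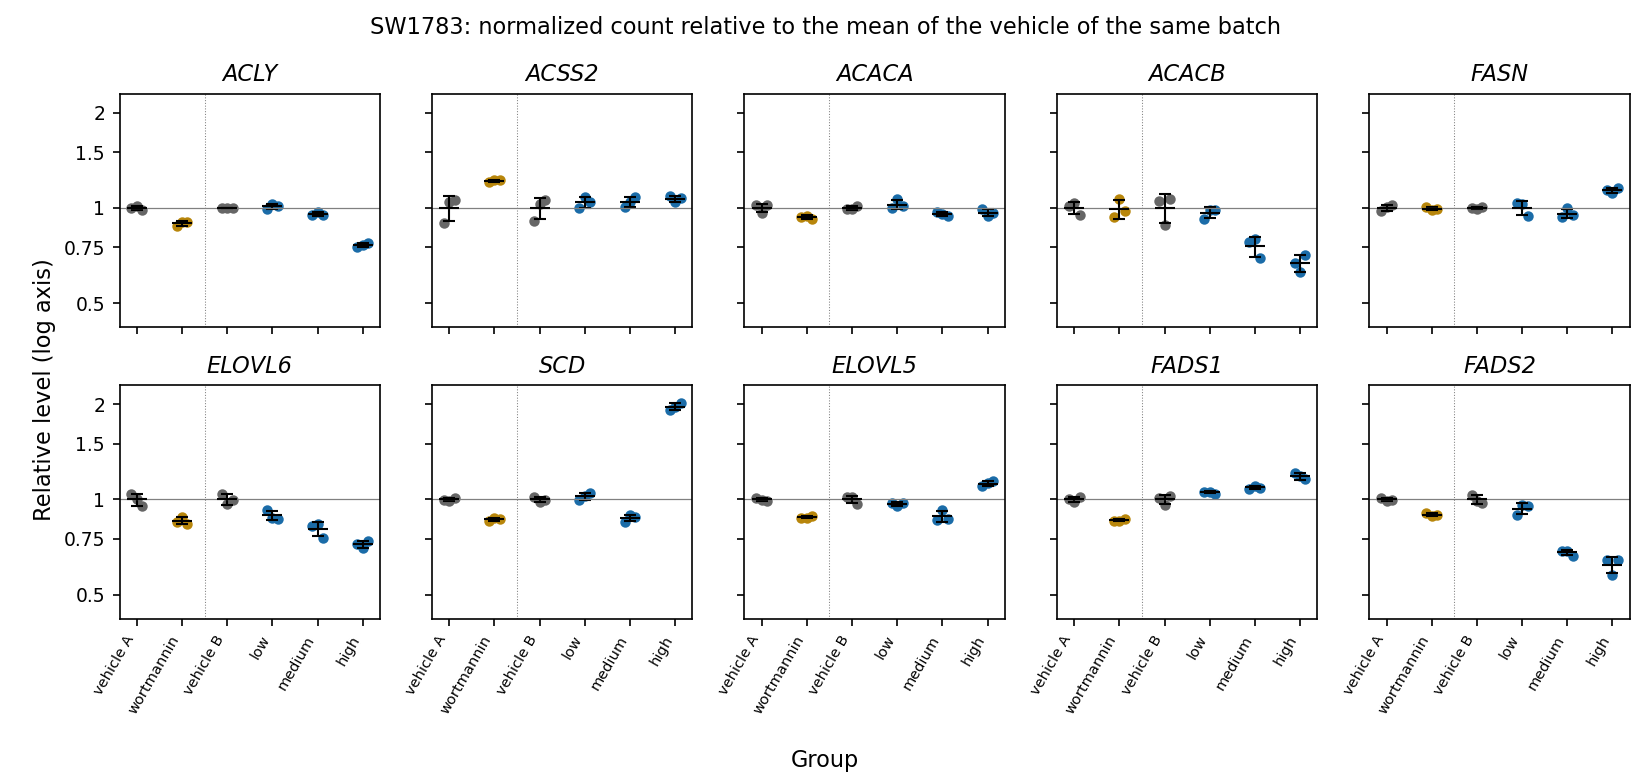
Normalized count of each enzyme in SW1783, divided by the mean of the vehicle of its own batch (log axis), with each library as a point and the mean ± SD (n = 3) in black; batch A lies left of the dotted line. SCD stands at 1.97 times the vehicle by the fitted fold at the high dose and FADS2 at 0.621 times, while the other enzymes stay between 0.667 and 1.19 times.

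The summed level of the 10 enzymes was 401 ± 2.5 CPM per kb (SD, n = 3) in SW1783 vehicle and 401 ± 4.74 at the high dose, and 341 ± 5.92 at the medium dose. Within this sum, SCD went from 12.4% ± 0.153 in vehicle to 22.5% ± 0.28 at the high dose, ACLY from 29.1% ± 0.195 to 20.4% ± 0.147 and FADS2 from 5.5% ± 0.142 to 3.15% ± 0.179. The sum depends on the scaling, since with the normalized counts used for the tests, per kb, it was at 108% ± 1.43 of the vehicle mean at the high dose and at 91.9% ± 1.99 at the medium dose, a scaling compared after seeing the data. The shares within a library do not depend on it.

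At the medium dose in SW1783 no enzyme was called, where 3.81% of all genes were. By adjusted p alone 7 passed, where 29.5% of all genes did. FADS1 was the 1 higher (15.1% of all genes), and ACLY, ACACB, SCD, ELOVL5, ELOVL6 and FADS2 were the 6 lower (14.5% of all genes). ACACB was at 153, 156 and 136 normalized counts, against 206, 173 and 210 in vehicle (log2 fold change -0.41 ± 0.14, adjusted p = 0.0168). At the low dose no enzyme was called or passed the adjusted p, 9 had one, and 0.118% of all genes were called and 3.29% passed the adjusted p with DESeq2 in that comparison. A single member, ELOVL6, had an unadjusted p under 0.05 there, and edgeR called none either.

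The genes that surround these enzymes in the pathway were taken from lists chosen by function. Among 12 regulators of the SREBP, LXR and ChREBP systems, 4 were called higher and 1 lower at the high dose in SW1783, where 8.66% and 9.57% of all genes were (median 0.35, against -0.01 over all genes tested). SREBF1 was at 908, 1000 and 996 normalized counts in vehicle, at 960, 951 and 1040 at the medium dose and at 1770, 1710 and 1810 at the high dose (0.86 ± 0.058, adjusted p = 8.58e-48). INSIG1, which retains SREBP in the endoplasmic reticulum and is itself a SREBP target, was at 2570, 2760 and 2630 in vehicle, at 2200, 2320 and 2320 at the medium dose and at 5700, 5780 and 5920 at the high dose (1.13 ± 0.040, adjusted p = 1.12e-169). Like SCD, INSIG1 was lower at the medium dose (-0.22 ± 0.043, adjusted p = 4.05e-06) and higher at the high dose. INSIG2 rose by 0.60 ± 0.11, and SREBF2 was at 0.32 ± 0.044, below the fold threshold. The 1 regulator called lower was PNPLA3, at a mean of 94.8 counts (-1.02 ± 0.19, adjusted p = 3.8e-07). The remaining gene called higher was MLXIPL, at a mean of 9.36 counts (2.28 ± 0.61). Both are named here although they are below the count minimum for naming.

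Among 12 other elongases and desaturases tested, FADS3, the neighbour of FADS1 and FADS2 and their relative in sequence, rose by 1.25 ± 0.076 at the high dose (from 456, 470 and 464 to 993, 1120 and 1180 normalized counts) and by 0.66 ± 0.078 at the medium dose. FADS3 and FADS2 thus went in opposite directions at the high dose. In that list 1 gene was called higher and 1 lower at the high dose, where 8.66% and 9.57% of all genes were. SCD5, the other human stearoyl-CoA desaturase, was the 1 called lower, at a mean of 55.2 counts (-1.53 ± 0.26, named here although it is below the count minimum for naming). Among 8 modulators of acetyl-CoA carboxylase and synthase tested, 3 were called higher, where 8.66% of all genes were, and none lower, where 9.57% were (median 0.36). They were MID1IP1, which promotes polymerization of the carboxylase (0.99 ± 0.053), and PRKAG2 (1.05 ± 0.055) and PRKAB2 (0.72 ± 0.068), subunits of the AMP-activated kinase that inhibits it. Of 11 genes that supply citrate, acetyl-CoA and NADPH, 1 was called higher and 1 lower, again against 8.66% and 9.57% of all genes. IDH1, a cytosolic source of NADPH, rose by 0.64 ± 0.060 and PC, pyruvate carboxylase, fell (-0.69 ± 0.082).

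Downstream of synthesis, PLIN2, a coat protein of lipid droplets, showed the largest change in the lists. It was at 1460, 1350 and 1430 normalized counts in vehicle, at 1460, 1460 and 1490 at the low dose, at 2250, 2210 and 2280 at the medium dose and at 12000, 13000 and 12200 at the high dose. Its log2 fold change was 0.67 ± 0.044 with the medium dose and 3.13 ± 0.041 with the high dose, and no library of these groups overlapped the vehicle. Of 18 genes of acyl-CoA synthesis and glycerolipid assembly tested, 3 were called higher and 2 lower at the high dose, again against 8.66% and 9.57% of all genes (median -0.03), the 2 being PLIN3, another droplet coat protein (-0.95 ± 0.051), and GPAM, the mitochondrial acyltransferase of the first step of glycerolipid synthesis (-0.68 ± 0.054). Of 24 genes of fatty acid oxidation tested, none was called higher, where 8.66% of all genes were, and 2 lower, where 9.57% were (median -0.00). The 2 lower calls, near that share, were SLC25A20, the carnitine carrier (-0.69 ± 0.10), and CPT1C (-0.60 ± 0.11).

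Cholesterol genes were called at about the share of all genes at the high dose in SW1783. Of 23, 2 were called higher and 2 lower, against the same 8.66% and 9.57% (median 0.10). MSMO1, a sterol oxidase, rose by 0.68 ± 0.058, and EBP, an isomerase that acts late in the pathway, fell (-0.64 ± 0.072). At the medium dose 1 of the 22 tested was called, in the lower direction. By adjusted p alone, 12 of the 22 were lower at the medium dose, where 14.5% of all genes were, and none higher, where 15.1% were (median -0.20). Between high and medium dose 5 of the 23 were called higher and 0 lower, where 755 and 924 of 16467 genes were (median 0.26, against -0.01). Outside this list, group means rose in the order medium, vehicle and high for SCD and INSIG1. The same order held for FASN (6729, 7010 and 7959 normalized counts) and ELOVL5 (5493, 6211 and 6976).

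**Figure D3:**
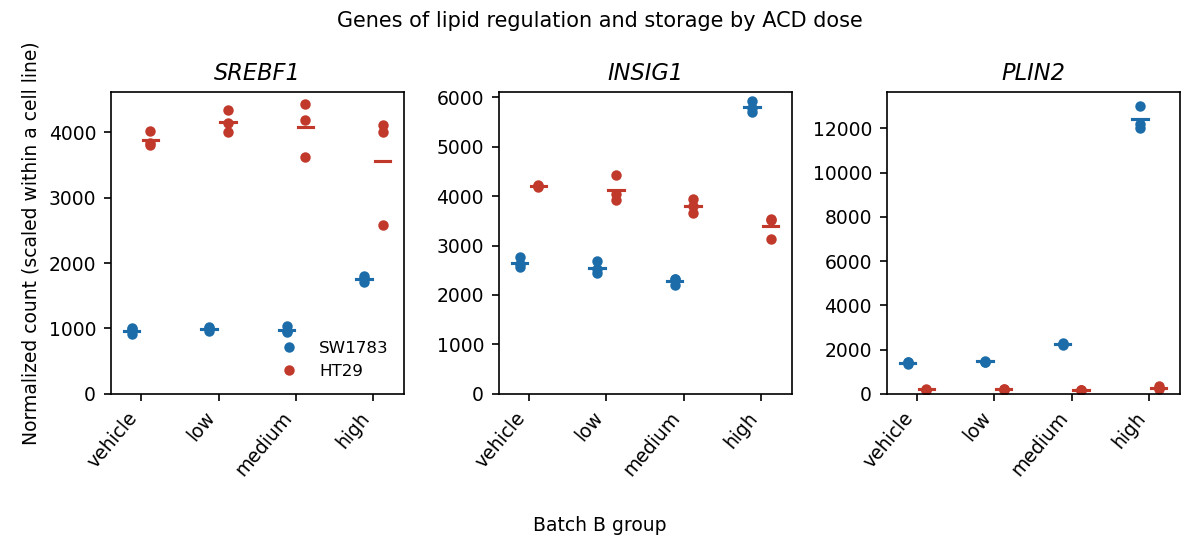
Normalized counts of SREBF1, INSIG1 and PLIN2 in each batch B library of SW1783 and HT29, with the mean of 3 as a line; counts were scaled within a cell line, so heights are to be compared within a color only. In SW1783 all 3 genes stand above vehicle at the high dose, PLIN2 at 12000 to 13000, and in HT29 replicate 2 of the high dose is the low point of SREBF1 (2580).

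In HT29 no dose of ACD changed any enzyme by the test. At the high dose none was called, where 2.92% of all genes were. At the medium and low doses and between high and medium dose none was called either, where 0.827%, 0.315% and 0.7% of all genes were. In these 4 comparisons DESeq2 gave no member an adjusted or an unadjusted p under 0.05, and edgeR called none. The adjusted p alone was passed by 7.62% of all genes at the high dose, 2.09% at the medium dose, 0.617% at the low dose and 1.7% between high and medium dose. SCD was at 35358, 41221 and 42326 normalized counts in vehicle, at 46347, 47108 and 46567 at the low dose, at 46627, 42971 and 44764 at the medium dose and at 44364, 30200 and 43013 at the high dose. All low-dose and medium-dose libraries were above all vehicle libraries, with log2 fold changes of 0.24 ± 0.13 (adjusted p = 0.774) and 0.18 ± 0.13 (adjusted p = 0.732), which did not pass. The SD of SCD was 3750 in vehicle, 391 at the low dose, 1830 at the medium dose and 7820 at the high dose. The fit used a single spread estimate per gene for all batch B groups of the line. The SE at the low and medium doses therefore also carries the outlying replicate 2 of the high dose. At the high dose the groups overlapped (-0.02 ± 0.13, adjusted p = 0.977, 95% interval -0.28 to 0.24).

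The width of these intervals followed single libraries. FASN was at 21929, 26338 and 24120 in HT29 vehicle and at 25911, 12319 and 24504 at the high dose, and ACACA at 9842, 12209 and 12981 and at 12628, 7809 and 12935. Replicate 2 of the high dose was thus at 48.9% of the mean of the other 2 libraries for FASN, at 61.1% for ACACA, at 69.1% for SCD, at 70.3% for ACACB, at 75.4% for FADS1 and at 83.8% for ACLY, but at 94.7% for ELOVL6 and 116% for ACSS2. Without this library the log2 fold changes at the high dose were 0.14 for SCD (adjusted p = 0.152), 0.13 for ACACA, 0.06 for FASN and 0.08 for FADS1, all with the other sign than with it, and still no enzyme was called. Replicate 1 was the lowest vehicle library for SCD, ACACA, FASN, ACLY, ELOVL6 and FADS1, at 74.5% to 90% of the mean of the other 2.

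ACLY, ELOVL6 and ACSS2 had narrower intervals in HT29. ELOVL6 was at 1493, 1776 and 1797 normalized counts in vehicle and at 1758, 1679 and 1787 at the high dose (0.04 ± 0.076, 95% interval -0.11 to 0.19). ACLY was at 8008, 8886 and 8905 and at 9267, 7632 and 8950 (0.00 ± 0.081, -0.15 to 0.16). These intervals exclude a change of 1.5-fold in either direction for both genes, as does that of ACSS2 (0.03 ± 0.093, -0.16 to 0.21). The wider interval of SCD given above excludes such a change as well. For ELOVL5 and FADS2 a change was not detectable at these counts in HT29. In the surrounding lists the high dose called ME1, malic enzyme and a source of NADPH (0.73 ± 0.062, from 1970, 1940 and 2020 to 3210, 3560 and 3090), and GPAT3, a glycerol-3-phosphate acyltransferase (1.12 ± 0.11, from 253, 300 and 329 to 647, 703 and 592), and no regulator. INSIG1 was lower by adjusted p alone (-0.31 ± 0.070, adjusted p = 0.000323).

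**Figure D4:**
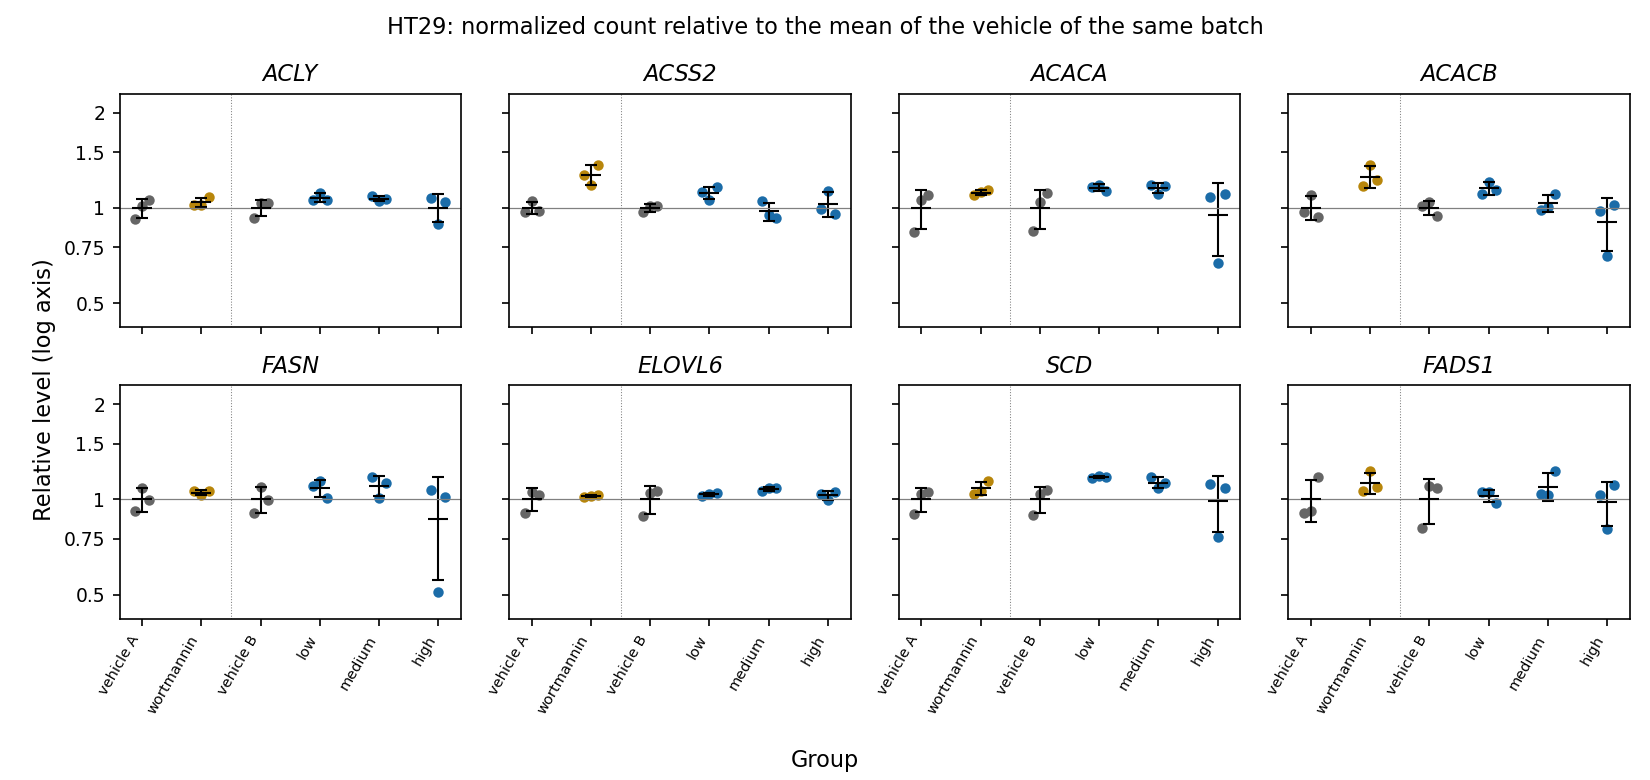
Normalized count of 8 enzymes in HT29, divided by the mean of the vehicle of its own batch (log axis), with each library as a point and the mean ± SD (n = 3) in black; ELOVL5 and FADS2 are left out because their counts were 0 to 13. The low point at the high dose is replicate 2, at 48.9% of the mean of the other 2 libraries for FASN.

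The difference between the lines was tested as an interaction, the log2 fold change in SW1783 minus that in HT29. At the high dose 2 enzymes were called, where 14.6% of all genes were. For SCD the difference was 0.95 ± 0.14 (adjusted p = 4.99e-10), from 0.98 in SW1783 and -0.02 in HT29. For FADS2 it was -1.39 ± 0.49 (adjusted p = 0.0193), but it rests on HT29 libraries with 0, 9 and 6 counts in vehicle and 13, 0 and 9 at the high dose, and it did not pass in edgeR (-1.35, adjusted p = 0.0907) or without replicate 1 of HT29 vehicle (-0.98, adjusted p = 0.122) or of the HT29 high dose (-0.66, adjusted p = 0.461). By adjusted p alone ACLY (-0.44 ± 0.081), ELOVL6 (-0.56 ± 0.090) and ACACB (-0.52 ± 0.20) also differed, all lower in SW1783, which made 5 of 10 where 27.7% of all genes passed, 4 of them lower (15% of all genes). Without replicate 2 of the HT29 high dose ELOVL6 (-0.59) and ACACB (-0.63) passed the fold threshold too, and 4 enzymes were called. The interaction was also past both thresholds for SREBF1 (0.94 ± 0.17), INSIG1 (1.40 ± 0.075), FADS3 (0.80 ± 0.11) and PLIN2 (2.65 ± 0.12). Without replicate 2 of the HT29 high dose, left out for these genes after seeing the data, it was 0.75 ± 0.096 for SREBF1, 1.42 ± 0.075 for INSIG1, 0.83 ± 0.12 for FADS3 and 2.78 ± 0.11 for PLIN2, and all 4 were still called.

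At the medium dose no enzyme was called for the difference between the lines, where 3.34% of all genes were, and ELOVL6 alone passed the adjusted p (-0.44 ± 0.089, adjusted p = 3.56e-05, 10.4% of all genes). SCD was at -0.39 ± 0.14 (adjusted p = 0.0549). PLIN2 (0.70 ± 0.12) was called.

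Wortmannin called no enzyme in either line. In SW1783, where 2.72% of all genes were called, 8 of the 10 enzymes passed the adjusted p alone (33.9% of all genes), 7 of them lower (20.1%) and 1 higher (13.8%). SCD was at 6207, 6183 and 6313 normalized counts in the batch A vehicle and at 5322, 5446 and 5412 with wortmannin (-0.21 ± 0.028, adjusted p = 2.76e-12). ELOVL6 (-0.23 ± 0.063), FADS1 (-0.22 ± 0.043), ELOVL5 (-0.18 ± 0.026), ACLY (-0.16 ± 0.023), FADS2 (-0.16 ± 0.051) and ACACA (-0.10 ± 0.035) were also lower, and FASN was at -0.01 ± 0.026 (adjusted p = 0.845). The SE of these shifts was small enough in SW1783 for shifts of 0.23 and less to pass.

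ACSS2, which makes acetyl-CoA from acetate, was higher with wortmannin in both lines. In SW1783 it was at 743, 865 and 875 normalized counts in vehicle and at 1001, 1015 and 1011 with wortmannin (0.28 ± 0.071, adjusted p = 0.000368). In HT29 it was at 464, 504 and 468 and at 610, 565 and 654 (0.34 ± 0.10, adjusted p = 0.00602), and the treated libraries were above all vehicle libraries in both lines. It was the 1 enzyme of 8 with an adjusted p to pass in HT29, where 18.7% of all genes passed the adjusted p and 2.65% were called. The difference between the lines was -0.08 ± 0.11 (adjusted p = 0.745, 95% interval -0.30 to 0.14). For the difference in response to wortmannin no enzyme was called, where 3.36% of all genes were, and 4 passed the adjusted p alone (14.9% of all genes), all lower in SW1783 (9.53%), namely SCD (-0.35 ± 0.084), FADS1 (-0.42 ± 0.12), ELOVL6 (-0.28 ± 0.092) and ACLY (-0.24 ± 0.070). With wortmannin neither SREBF1 (-0.10 ± 0.062 in SW1783 and 0.02 ± 0.063 in HT29) nor INSIG1 (0.03 ± 0.037 and -0.04 ± 0.050) passed.

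**Figure D5:**
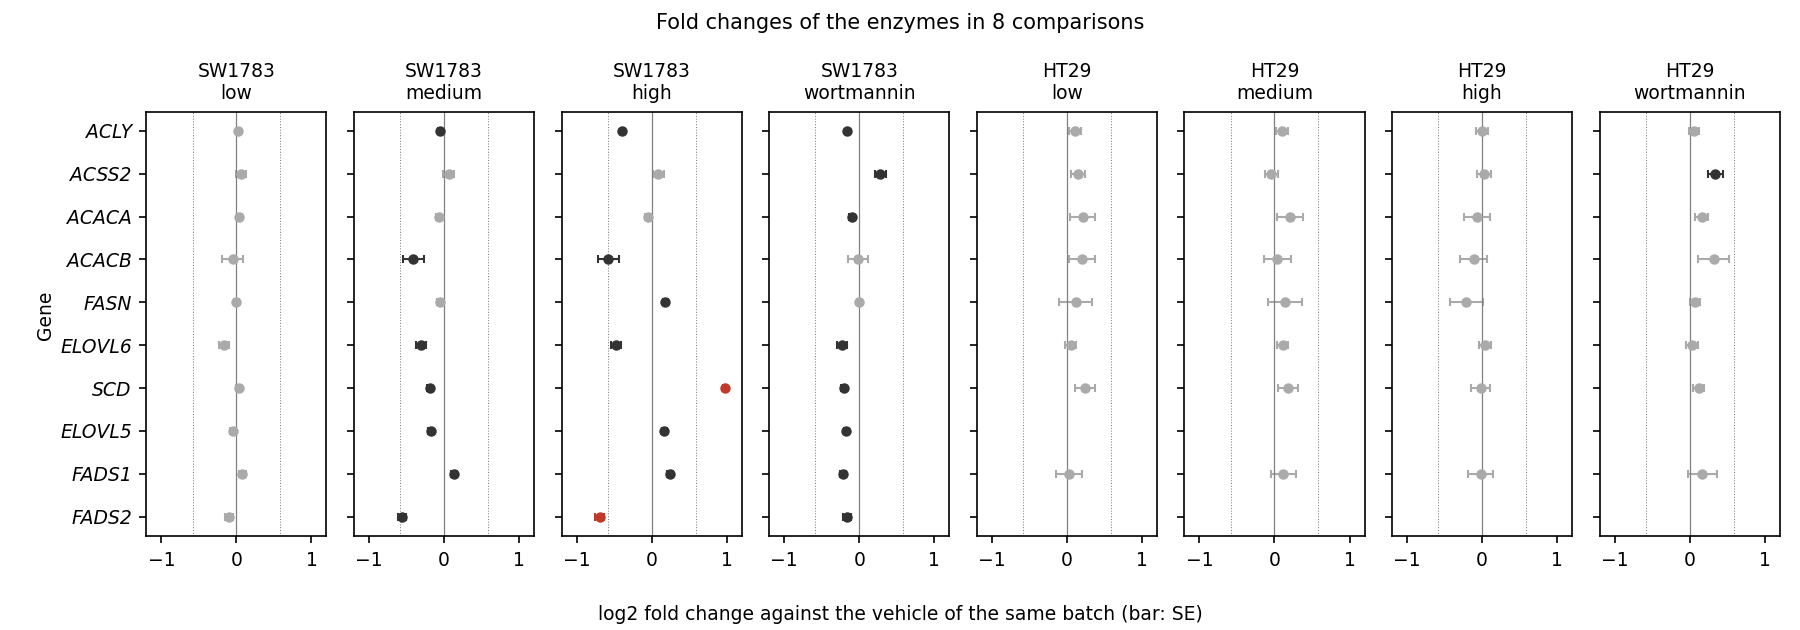
Log2 fold change ± SE of each enzyme against the vehicle of its own batch, for 4 treatments in each line; red points passed both thresholds, dark points the adjusted p alone and grey points neither, and dotted lines mark a 1.5-fold change. Only SCD (0.98) and FADS2 (-0.69) at the high dose in SW1783 are red, and ELOVL5 and FADS2 are not drawn for HT29.

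Across the 24 treated libraries of both lines, with values centred on the vehicle of the same line and batch, the genes whose pattern was most like that of SCD were SEC23IP (Pearson r = 0.94) and SREBF1, PANK3, NIPA1 and OSBPL8 (r = 0.93 each), out of 9685 genes compared. For FASN they were PDPK1 (r = 0.95) and MAP3K9, LMTK2, WDFY3 and SEC16A (r = 0.94 each). For FADS2, which is itself below the count minimum in HT29, they were EIF4G1, CHERP and MAPK7 (r = 0.90 each), CAMSAP2 (0.89) and TEAD1 (0.88). These correlations are descriptions over libraries that share vehicles and, in HT29, the low replicate 2 of the high dose, and no test was made of them.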

How the data were processed

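The 10 genes and the surrounding lists were chosen with earlier results of these data known, and the lists were written from general knowledge. Per the labels, the authors checked reads with FastQC 0.11.9, trimmed them with Trim Galore 0.6.5, aligned them with STAR 2.7.3a and deposited expected counts per gene from RSEM 1.3.3, which were not normalized. The methods give other versions of Trim Galore and STAR, and the strand setting and the handling of reads with several positions were not given in the sources used here. Expected counts were rounded here. Reads shared by overlapping genes or near-identical copies are divided by RSEM's model in a way the counts alone do not reveal.

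Each cell line and batch was fitted with the Wald test of DESeq2 1.42.0 (R 4.3.3), two-sided, after genes at 0 in all its libraries were dropped, with Benjamini-Hochberg adjustment over all genes tested. A called gene had an adjusted p under 0.05 and a change over 1.5-fold. Interactions were fitted on both lines. Normalized counts were divided by size factors within a fit. Adjusted p-values that DESeq2 left out stayed missing. Of genes outside the 10, SREBF1, SREBF2 and INSIG1 were always named, and up to 3 called genes per list with the largest change at a mean count of 100 or more, except that some genes of the cholesterol list are counted but not reported here. Likeness used log2 of the normalized count + 1. The fit was tested on simulated data with 200 changed genes, all with a vehicle mean of 100 or more. It recovered 100% of their 2-fold changes in SW1783 (26313 genes run) and 99% in HT29 (25569 genes run) at the high dose. It also called 6 and 12 unchanged genes. The simulated counts were drawn with the spread that the same fit had estimated. Changes under 2-fold were not simulated, so the recovery does not cover the smaller changes reported here. Scarcer genes, such as ELOVL5, FADS2 and ACACB in HT29, and a single outlying library were not simulated either. Alternatives were edgeR 4.0.16 (quasi-likelihood), TMM scaling, a filter of 10 counts in 3 libraries, the adjusted p alone, fits on the groups compared, a replicate block and leaving out each library. Gene positions came from GENCODE v44 (GRCh38) and promoters from RefSeq. Depth is given with the results.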

Additional observations from a re-analysis of the deposited data

Results flagged for a closer look

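The response of SCD to the high dose of ACD differed between the cell lines by 0.95 ± 0.14 on the log2 scale in the interaction test of DESeq2, with SW1783 above HT29 (adjusted p = 4.99e-10). It stayed past both thresholds in all 17 alternatives, with values of 0.79 to 1.05. For FADS2 the same test gave -1.39 ± 0.49 (adjusted p = 0.0193), but the HT29 libraries behind it had 0 to 13 counts, and the call was lost in 3 of 17 alternatives (-1.86 to -0.66, adjusted p = 0.00194 to 0.461), so that a difference in the response of FADS2 is not established at this depth.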

How the results depend on the processing

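With the adjusted p alone, the number of the 10 enzymes that passed in SW1783 was 8 (high dose), 7 (medium dose), 8 (wortmannin) and 6 (high against medium dose), with 1 for wortmannin in HT29, and it was 5, 1 and 4 for the differences between the lines at the high dose, the medium dose and with wortmannin. With edgeR the difference between the lines at the high dose called 1 enzyme instead of 2, since FADS2 did not pass. Leaving out single libraries gave 2 to 3 called enzymes at the high dose in SW1783, 1 to 4 for the difference between the lines at the high dose and 8 to 9 for the vehicle comparison, and the same count as reported in the others. Between the groups compared within a batch, replicate numbers did not pair the libraries throughout. In batch B, deviations of same-numbered libraries from their group means correlated by -0.46 to 0.33 in HT29 and by -0.12 to 0.22 in SW1783. Of these SW1783 pairs 5 of 18 exceeded 0.1, against 0 of 36 different-numbered pairs, so some pairing there was not excluded. In HT29 it was 5 of 18 against 12 of 36. With a replicate block the counts of called enzymes were those reported. They were 2 at the high dose in SW1783, 9 between the vehicles, 2 for the difference at the high dose, 1 for high against medium dose in SW1783 and 0 elsewhere. TMM scaling moved the median of all genes by at most 0.036 (log2). No fold change of a called enzyme changed sign. Fits on only the groups compared add nothing where a fit held 2 groups. Low counts limit ELOVL5 and FADS2 in HT29, and the spread of HT29 replicates limits FASN, ACACA and SCD there.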
